A study of Mus musculus with 36 samples.

Results

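Among the places where Nanog was found in mouse embryonic stem cells, 385 regions were called after 24 h of 2i medium and in no other culture of the same cells. They were chosen by peak calls alone. The peaks of the 5 Nanog lists of KH2 cells on chromosomes 1 to 19 and X were merged wherever they overlapped by at least 1 bp, which gave 53956 regions. A region was chosen if it held a 24 h peak from each of the 2 antibody lots and no peak from serum cells, from GFP-high serum cells or from cells kept in 2i for 3 passages. The 385 regions were 0.714% of all merged regions. They are set beside 2508 lasting gains, which met the same rule except that they also held a peak at 3 passages.

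The cells were KH2, an established mouse embryonic stem cell line, grown with LIF in 2i for 24 h, in 2i for 3 passages, or in serum medium, and maintained on irradiated mouse feeder cells. The lot 1 lists have 2 samples each behind them in the labels and the lot 2 lists 1 each. Nanog was precipitated with lot 1 of 1 antibody from cells at 24 h, at 3 passages and in serum, and with lot 2 from cells at 24 h, from serum cells labelled GFP-high and from DNMT triple knockout (TKO) cells at 24 h of 2i, which lack DNA methyltransferases and are another line. The labels do not say which reporter gave the GFP, and they mark the 24 h cultures of lots 1 and 2 as different versions. Sox2 and the histone mark H3K4me3 were mapped in KH2 cells in serum, at 24 h and at 3 passages, and Oct4 (Pou5f1) at 24 h and in serum.

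Nanog is a homeodomain protein of the pluripotency network and binds many of its sites together with Oct4 and Sox2. 2i medium blocks the kinases MEK and GSK3 and holds the cells in a naive state with low DNA methylation and high, uniform Nanog. H3K4me3 lies mainly at the start sites of active genes, so a site without it is usually distal to a promoter. Peaks from a mixed culture do not tell weak binding in every cell from strong binding in a few cells.

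Each pairing of a culture and an antibody lot had 1 list of peaks, and no value per replicate was at hand, so nothing below could be set against the spread between cultures. The 5 KH2 Nanog lists held 21893 to 41729 peaks on the chromosomes used. The q-value is the caller's false discovery rate for a peak, so a high −log10 q marks a firm call. Their lowest −log10 q was 16.0 (lot 1) and 23.2 (lot 2) at 24 h, 12.8 at 3 passages, 14.0 in serum and 22.0 in GFP-high serum cells, so absence from a list means only that no peak passed that list's own limit. The positions are those of build mm9, counted from 1. No genome or annotation of that build was used, so the regions carry no gene names, exon or intron labels or sequences.

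The share of new 24 h regions without a 3 passage peak differed between the 24 h lists of the 2 lots. These lists also differed in length, at 41729 peaks with lot 1 and 21893 with lot 2. Their lowest −log10 q, number of samples and labelled version differed too, so the part of the lot was not tested. Lot 1 had 15504 regions at 24 h outside both serum lists, of which 9125, or 58.9%, were not called at 3 passages. Lot 2 had 4976 such regions, with 1663, or 33.4%, not called at 3 passages. Regions found with both lots numbered 2893, and of these 385, or 13.3%, were not called at 3 passages. The 3 passage list was made with lot 1. For comparison, 58 of the 11771 regions found with both lots and in both serum lists, or 0.493%, lacked a peak at 3 passages. The choice of regions depended on list length: when each of the 5 lists was cut to its 21893 strongest peaks, 340 regions met the rule, and 45 of the 385 were among them. Of the 2508 lasting gains, 1044 were chosen again.

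The 385 regions had weak Nanog peaks at 24 h. Their median fold enrichment, the authors' ratio over the control, was 7.96 with lot 1 (quartiles 6.82 and 9.49, range 3.87 to 23.9) and 8.03 with lot 2 (quartiles 6.86 and 9.43, range 4.82 to 19.01). The lasting gains had medians of 10.7 with lot 1 (quartiles 8.19 and 14.8) and 9.08 with lot 2 (quartiles 7.48 and 11.7). These folds belong to the peaks that chose the regions and are given as a description. In the order of −log10 q, 349 of the 385 regions, or 90.6%, lay in the lower 50% of the lot 1 list, against 52.2% of the lasting gains, and 365, or 94.8%, in the lower 50% of the lot 2 list, against 72.9%. Many were close to the limit of the lists. A −log10 q within 1.5 times the list's lowest value was found for 191 regions (49.6%) with lot 1. With lot 2 it was found for 266 (69.1%). Among lasting gains it was found for 443 (17.7%) with lot 1 and 935 (37.3%) with lot 2. Lot 1 gave the higher fold at 193 of the 385 regions, and at 1560 of the 2508 lasting gains.

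**Figure D1:**
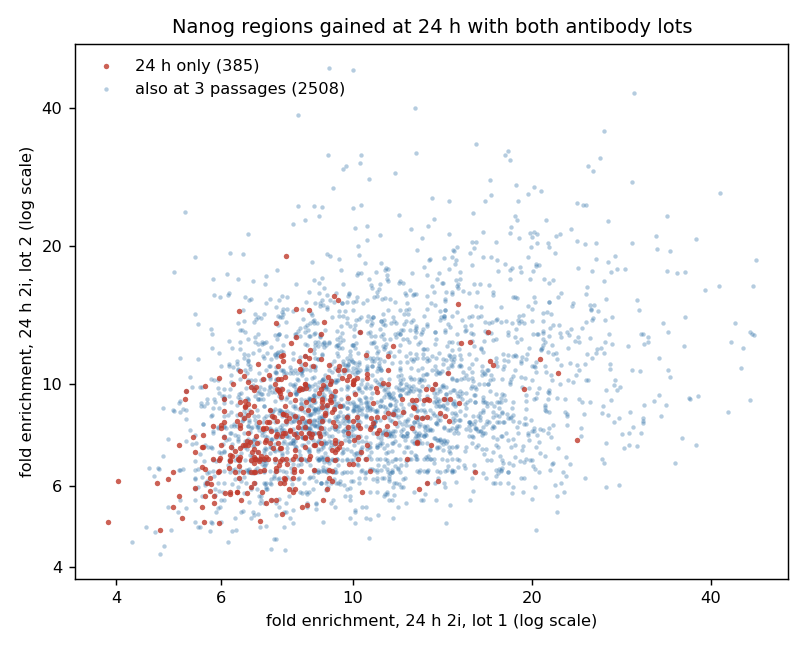
Fold enrichment of each region at 24 h of 2i with lot 1 (x axis, log scale) and lot 2 (y axis, log scale). Red points are the 385 regions called only at 24 h and blue points the 2508 lasting gains; the red points lie at the weak end of the blue cloud, with medians of 7.96 and 8.03 against 10.7 and 9.08.

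The share called only at 24 h went down with the strength of the peak. The 2893 regions of both kinds were divided into 4 groups by the geometric mean of their 24 h folds in the 2 lots. In the weakest group, with mean folds of 4.40 to 8.08, 189 of 724 regions, or 26.1%, were not called at 3 passages. The next groups had 116 of 723 (16.0%) and 68 of 723 (9.41%). In the strongest group, with mean folds of 12.0 to 35.8, there were 12 of 723, or 1.66%. Lasting gains of the weakest group still had a median fold of 6.05 at 3 passages, and 32.9% of them lay within 1.5 times the lowest −log10 q of that list, against 4.22% in the strongest group. These shares restate the values behind the rule.

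At the edge of the rule, the region closest to a peak of an excluded list was on chromosome 6 from 54149775 to 54150367, with folds of 6.22 (lot 1) and 5.78 (lot 2), 116 bp away from it. Just outside the rule was a region on chromosome 7 from 117192405 to 117192909, with folds of 8.06 (lot 1) and 6.16 (lot 2), where the overlap with a GFP-high serum peak was 297 bp.

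The regions were ordered by the sum of their fold ranks in the 2 lots at 24 h. First came chromosome 6 from 100971242 to 100971977, with Nanog folds of 15.1 with lot 1 and 14.9 with lot 2. It held an Oct4 peak at 24 h with a fold of 18.1 and a TKO Nanog peak with a fold of 32.1. Serum Oct4 and Sox2 of any condition were not called there. The second region, on chromosome X from 35527079 to 35527601, had Nanog folds of 16.9 with lot 1 and 13.0 with lot 2. Its only other peak was Sox2 at 24 h, with a fold of 5.52, and TKO cells had no Nanog peak within 156 kb. Each of these sites thus held 1 partner factor at 24 h that was not called there in serum. Oct4 was not mapped at 3 passages.

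Most of the next sites had no peak in the other 9 lists. Chromosome 9 from 77745969 to 77746924 had folds of 15.7 with lot 1 and 12.3 with lot 2, and a TKO Nanog fold of 12.3. On chromosome X from 54421382 to 54422000 the folds were 15.2 with lot 1 and 12.3 with lot 2, and none of the 9 other lists had a peak. The same held on chromosome 17 from 80050812 to 80051452, with 20.7 (lot 1) and 11.3 (lot 2), although KH2 Nanog peaks of serum, GFP-high serum and 3 passages all lay 1.95 to 1.98 kb away. That site is a neighbour of one called in all those cultures. Chromosome 7 gave a pair of sites without any other peak, from 6817271 to 6817773 with folds of 17.1 (lot 1) and 11.2 (lot 2), and from 75779141 to 75779625 with folds of 17.2 (lot 1) and 11.0 (lot 2).

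The remaining 3 of the first 10 differed among themselves. Chromosome 10 from 8994040 to 8994701 had a fold of 22.2 with lot 1 and 10.6 with lot 2, with no peak in the other 9 lists. Chromosome 6 from 124842435 to 124843116 had folds of 14.5 with lot 1 and 10.6 with lot 2. In TKO cells this site was strong, with a Nanog fold of 60.1, and a KH2 Nanog peak of 3 passages began 0.227 kb from its edge. Chromosome 11 from 99737086 to 99737818 had 11.7 (lot 1) and 12.1 (lot 2) and no further peak. In all, 3 of the first 10 held a TKO Nanog peak, 1 held Sox2, 1 held Oct4 and 6 held none of these.

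Lasting gains reached higher folds. The first by the same order, on chromosome 3 from 37250925 to 37251650, had Nanog folds of 41.5 with lot 1 and 26.1 with lot 2 at 24 h, 22.0 at 3 passages and 95.7 in TKO cells. The next, on chromosome 1 from 156841572 to 156842481, had 29.8 with lot 1, 43.1 with lot 2, 47.2 at 3 passages and 56.3 in TKO cells. The third, on chromosome 6 from 114972625 to 114973638, had 33.8 with lot 1, 23.3 with lot 2, 27.6 at 3 passages and 65.1 in TKO cells. No region called only at 24 h passed 23.9 with lot 1 or 19.01 with lot 2.

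At the other end, the last of the 385 lay on chromosome 19 from 16263336 to 16263991, with folds of 4.74 with lot 1 and 4.82 with lot 2 and a TKO fold of 6.31. The one before it, on chromosome 5 from 136432452 to 136434049, had 3.87 (lot 1) and 5.01 (lot 2), and the summits of the lots were 697 bp apart. It was also the widest, at 1598 bp. The last but 2, on chromosome 5 from 123270769 to 123272021, had 5.16 (lot 1) and 5.11 (lot 2) and held H3K4me3 peaks in all conditions.

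Nanog in TKO cells was the first measure that the rule did not use. A TKO Nanog peak overlapped 186 of the 385 regions, or 48.3% (exact 95% interval 43.2 to 53.4), against 1756 of 2508 lasting gains, or 70.0% (68.2 to 71.8), and 44.2% of all merged regions. The interval of the 24 h-only regions included the share of all merged regions and did not meet that of the lasting gains. All merged regions are not a like set. Of the 53956, 21674 held a 24 h peak of lot 2, the lot of the TKO list. The TKO share was 24.2% for regions called with lot 1 at 24 h alone and 79.4% for regions of all 5 lists. Nothing particular to the 24 h-only regions is read from the 44.2%. All intervals are Clopper-Pearson intervals, which cover counting error only. Regions are not replicates, so no test was made between the sets here or below. Where a TKO peak was present, its median fold was 12.1 (range 5.91 to 68.2) at the 186 regions and 14.5 at the 1756 lasting gains.

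The strength of the KH2 peak did not separate the 24 h-only regions with a TKO peak from those without. Median folds were 7.95 with lot 1 and 8.16 with lot 2 at the 186 regions with a TKO peak, and 7.96 with lot 1 and 7.84 with lot 2 at the 199 regions without. Among lasting gains those with a TKO peak had 11.1 with lot 1 and 9.28 with lot 2, and those without had 9.82 with lot 1 and 8.73 with lot 2. TKO and KH2 cells are different lines, so the absence of methyltransferases and the line cannot be told apart. Chromosome 6 held 9.50% of TKO peaks and 5.90% of all merged KH2 regions, and chromosome 8 held 6.51% and 5.00%, the largest such ratios of the 20 chromosomes. Without both, the TKO share was 45.5% of the 24 h-only regions and 69.2% of lasting gains.

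**Figure D2:**
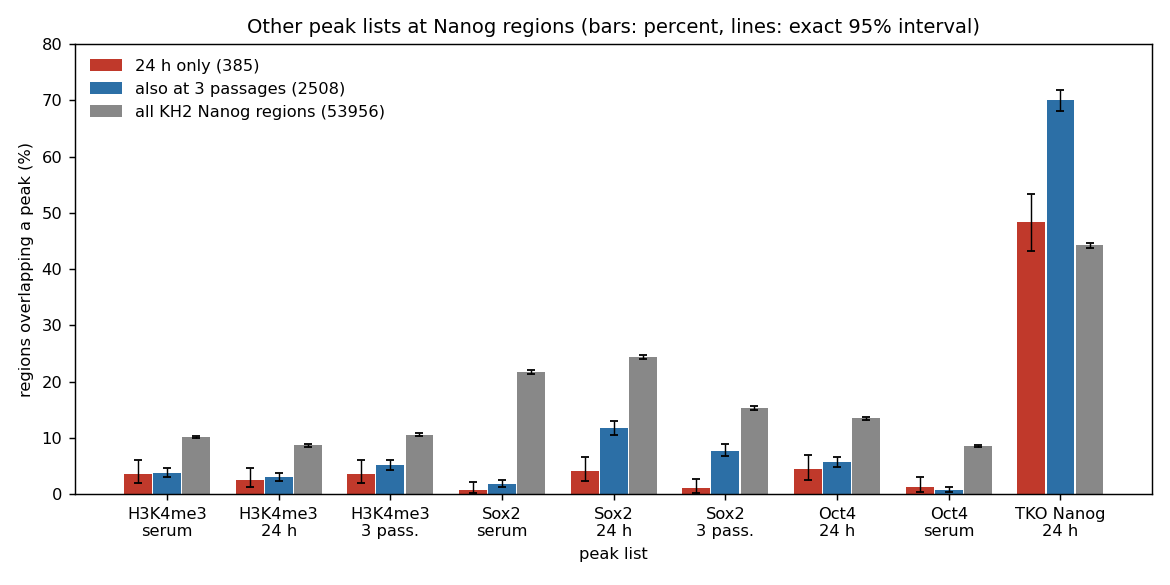
Percent of regions that overlapped a peak of each of 9 lists the rule did not use, for the 385 regions called only at 24 h (red), the 2508 lasting gains (blue) and all 53956 KH2 Nanog regions (grey); lines are exact 95% intervals. The red and blue bars differ most for TKO Nanog, at 48.3% and 70.0%, and for Sox2 at 24 h, at 4.16% and 11.8%.

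Sox2, the partner with which Oct4 binds a joint element, was rare at the regions called only at 24 h. In serum 3 regions, or 0.779% (0.161 to 2.26), held a Sox2 peak, at 24 h 16, or 4.16% (2.39 to 6.66), and at 3 passages 4, or 1.04% (0.284 to 2.64). The lasting gains held Sox2 in 1.87% (1.38 to 2.48) in serum, 11.8% (10.5 to 13.1) at 24 h and 7.78% (6.76 to 8.89) at 3 passages. Over all merged regions the shares were 21.8% in serum, 24.4% at 24 h and 15.3% at 3 passages. Both sets of gained regions were thus below the background in every Sox2 list, and the intervals of the 2 sets did not overlap at 24 h and at 3 passages. In both sets the share was largest at 24 h. The background includes the regions of all 5 Nanog lists, of which 71.6% held Sox2 at 24 h. Regions called at 24 h with 1 lot and in no other Nanog list held it in 4.19% (lot 1) and 2.11% (lot 2). Scarce Sox2 was thus not particular to regions found with both lots.

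The Sox2 peaks at 24 h were also weak ones. Of the 16, 14 had a −log10 q under 10, and their median fold was 4.83 (range 3.91 to 14.7). At lasting gains 254 of 295 were under 10, with a median fold of 4.91. Over all merged regions 6412 of 13180 were under 10, with a median fold of 6.26. With peaks under 10 left out, Sox2 at 24 h remained at 0.519% of the 24 h-only regions (0.063 to 1.86) and 1.63% of lasting gains. That interval includes the share of lasting gains. Of all 53956 merged regions, 6768 still held Sox2 at 24 h. The Sox2 list of 24 h reaches down to a −log10 q of 3.69, that of 3 passages to 7.52 and that of serum to 17.3, so the 3 shares do not rest on one limit. Of the 16 regions with Sox2 at 24 h, 4 (25%, 7.27 to 52.4) also held Sox2 at 3 passages, against 91 of 295 lasting gains (30.8%, 25.6 to 36.5) and 7112 of 13180 of all merged regions with Sox2 at 24 h (54.0%, 53.1 to 54.8). The interval of the 16 included the share of lasting gains and lay below that of all merged regions.

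Oct4 was called at 24 h in 17 of the 385 regions, or 4.42% (2.59 to 6.98), and in serum in 5, or 1.30% (0.423 to 3.00). For lasting gains the shares were 5.66% (4.79 to 6.64) at 24 h and 0.797% (0.488 to 1.23) in serum, and for all merged regions 13.5% at 24 h and 8.56% in serum. The intervals of the 24 h-only regions and the lasting gains overlapped in both Oct4 lists. Median Oct4 folds at 24 h were 21.6 (range 10.6 to 34.9) at the 17 regions and 17.5 at the 142 lasting gains, so the few Oct4 peaks at 24 h-only regions were not weak within the list. Its lowest −log10 q, 85.9, is far above that of the Nanog lists, and weaker Oct4 binding would not be seen.

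In both sets of gained regions the pairing of Oct4 with Sox2 was looser than over all merged regions. The intervals of these 2 sets overlapped. All merged regions are not a like set here either, since 5106 of their 7269 regions with Oct4 at 24 h were in all 5 Nanog lists. Sox2 at 24 h was present at 6 of the 17 regions with Oct4 at 24 h (35.3%, 14.2 to 61.7), at 60 of 142 lasting gains with Oct4 (42.3%, 34.0 to 50.8), and at 81.6% (80.7 to 82.5) of all merged regions with Oct4. Of the 17 regions, 5 (29.4%, 10.3 to 56.0) held Oct4 in serum too, against 16 of 142 lasting gains (11.3%, 6.58 to 17.7) and 3801 of 7269 of all merged regions with Oct4 at 24 h (52.3%, 51.1 to 53.4). TKO Nanog was called at 5 of the 16 regions with Sox2 (31.3%, 11.0 to 58.7) and 5 of the 17 with Oct4 (29.4%, 10.3 to 56.0). Among lasting gains it was called at 67.5% of those with Sox2 and 72.5% of those with Oct4, and among all merged regions at 68.6% of those with Sox2 and 76.1% of those with Oct4.

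Of the 6 regions with both partners at 24 h, the first 5 by Nanog rank are described, beginning with the one that had the strongest Sox2 and Oct4. On chromosome 13 from 20593669 to 20594297, Nanog was weak, with folds of 6.53 with lot 1 and 6.44 with lot 2. Sox2 folds there were 12.7 in serum, 14.7 at 24 h and 10.4 at 3 passages. The Oct4 fold was 34.9 at 24 h, the highest of the 17, and serum cells had no Oct4 peak. Sox2 was thus called at all times at a site where Nanog was called at 24 h alone.

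A like pattern was seen on chromosome 13 from 51586955 to 51587520, with Nanog folds of 10.7 (lot 1) and 7.97 (lot 2). Here Sox2 was found with folds of 7.94 in serum, 8.06 at 24 h and 5.59 at 3 passages. The Oct4 folds were 32.3 at 24 h and 15.3 in serum, and the TKO Nanog fold was 7.08. This region was called for both partners in every list. The first region with both partners by Nanog rank, on chromosome 4 from 35911549 to 35912013, had Nanog folds of 9.65 (lot 1) and 10.8 (lot 2), Oct4 folds of 32.1 at 24 h and 24.6 in serum, and Sox2 at 24 h only, with 4.62.

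Chromosome 18 from 54286655 to 54287138 had Nanog folds of 9.87 (lot 1) and 6.69 (lot 2), Oct4 folds of 21.6 at 24 h and 18.2 in serum, and Sox2 folds of 4.98 at 24 h and 5.19 at 3 passages. Chromosome 9 from 4616693 to 4617160 had Nanog folds of 7.16 (lot 1) and 5.52 (lot 2), Oct4 folds of 22.1 at 24 h and 12.7 in serum, and Sox2 at 24 h only, with 5.60. Oct4 was thus called in serum at 4 of these 5 sites.

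H3K4me3 was called at few regions. It overlapped 14 of the 385 in serum (3.64%, 2.00 to 6.03), 10 at 24 h (2.60%, 1.25 to 4.72) and 14 at 3 passages (3.64%, 2.00 to 6.03). For lasting gains the shares were 3.87% (3.15 to 4.70) in serum, 3.07% (2.43 to 3.82) at 24 h and 5.14% (4.31 to 6.08) at 3 passages, and for all merged regions 10.2% in serum, 8.73% at 24 h and 10.6% at 3 passages. The intervals of the 24 h-only regions and the lasting gains overlapped in each H3K4me3 list, and both lay below the share of all merged regions.

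Where the mark was called, it was mostly called in more than 1 condition. Of the 16 regions with H3K4me3 in any list, 9 had it in all 3, and 2 had it in 2i and not in serum. A single region had it at 24 h and at neither other time. Among lasting gains 67 of 147 had it in all 3 lists, 50 had it in 2i and not in serum, and 1 had it at 24 h alone. Of the 6672 merged regions with the mark in any list, 4217 had it in all 3, 1182 had it in 2i and not in serum, and 161 had it at 24 h alone. With 16 regions, nothing particular to the 24 h-only set is read from these counts. Median H3K4me3 folds at the 24 h-only regions were 20.4 in serum, 15.1 at 24 h and 15.5 at 3 passages, and at lasting gains 16.4 in serum, 9.60 at 24 h and 10.3 at 3 passages.

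The strongest marked site was on chromosome 2 from 10284966 to 10285592, with H3K4me3 folds of 40.5 in serum, 30.0 at 24 h and 51.9 at 3 passages. Its Nanog folds were 6.28 with lot 1 and 10.02 with lot 2. Chromosome 4 from 98592791 to 98593307 had Nanog folds of 7.42 (lot 1) and 13.6 (lot 2), and H3K4me3 folds of 24.9 in serum, 17.7 at 24 h and 22.2 at 3 passages. Both had the higher Nanog fold with lot 2, and neither had a TKO Nanog peak.

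Chromosome 1 from 173368805 to 173370209 had Nanog folds of 6.89 (lot 1) and 7.71 (lot 2) with summits 470 bp apart, H3K4me3 folds of 19.9 in serum, 15.3 at 24 h and 19.1 at 3 passages, and a TKO Nanog fold of 16.1. Chromosome 5 from 114576520 to 114577320 had Nanog folds of 6.39 (lot 1) and 8.31 (lot 2), and H3K4me3 folds of 19.1 in serum, 11.3 at 24 h and 14.3 at 3 passages. A serum Nanog peak lay 0.195 kb from its edge. Chromosome 3 from 95020399 to 95020865 had Nanog folds of 7.97 (lot 1) and 6.56 (lot 2), and its H3K4me3 fold was 17.3 in serum, 3.54 at 24 h and 16.6 at 3 passages. At all 5 marked sites the H3K4me3 fold was smallest at 24 h. The 24 h list also has the smallest median fold of the 3 H3K4me3 lists as a whole, 8.16 at 24 h, against 12.6 in serum and 10.003 at 3 passages.

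Put together, 345 of the 385 regions, or 89.6% (86.1 to 92.5), held no H3K4me3, Sox2 or Oct4 peak of any condition. This was so for 75.4% (73.7 to 77.1) of lasting gains and 57.6% (57.2 to 58.0) of all merged regions. TKO Nanog was called at 171 of the 345 (49.6%, 44.2 to 55.0), against 69.6% (67.5 to 71.7) of such lasting gains and 33.7% (33.2 to 34.3) of all such regions. The other 174 regions, 45.2% of the 385 (40.1 to 50.3), had no peak in any of the 9 lists, against 22.9% (21.3 to 24.6) of lasting gains and 38.2% (37.7 to 38.6) of all merged regions. Most 24 h-only regions thus held Nanog and no H3K4me3, Sox2 or Oct4 peak in KH2 cells.

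Since the 24 h-only regions had weaker peaks, the shares were also compared within the 4 groups of mean fold. In the weakest group of mean folds, TKO Nanog was called at 47.6% of 189 regions called only at 24 h (40.3 to 55.0) and at 63.6% of 535 lasting gains (59.3 to 67.6). The second group had 50.9% of 116 regions called only at 24 h (41.4 to 60.3) and 67.4% of 607 lasting gains (63.5 to 71.1). The third had 47.1% of 68 regions called only at 24 h (34.8 to 59.6) and 67.2% of 655 lasting gains (63.4 to 70.8). The strongest had 41.7% of 12 regions called only at 24 h (15.2 to 72.3) and 79.7% of 711 lasting gains (76.6 to 82.6). The intervals did not overlap in any group. In the first 3 groups the strengths were close, with median mean folds of 6.98 at the 24 h-only regions and 7.20 at lasting gains in the weakest, 8.78 at the 24 h-only regions and 8.86 at lasting gains in the second, and 10.4 at the 24 h-only regions and 10.7 at lasting gains in the third. The strongest group was not matched in this way, since its 12 regions called only at 24 h reached a mean fold of 15.3 and its lasting gains 35.8. The TKO share of lasting gains was largest in the strongest group, while that of the 24 h-only regions stayed between 41.7% and 50.9%. The groups match the sets by the 24 h folds alone, which belong to the peaks that chose the regions. Lasting gains were by rule also called in a further Nanog list. How far this rule itself accounts for the gap in TKO shares was not tested.

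For Sox2 at 24 h the order was the same in each group, with overlapping intervals. The shares were 3.70% of the 24 h-only regions and 8.79% of lasting gains in the weakest group, 4.31% of the 24 h-only regions and 8.24% of lasting gains in the second, and 4.41% of the 24 h-only regions and 10.5% of lasting gains in the third. In the strongest group Sox2 was called at 1 of 12 regions called only at 24 h, or 8.33%, and at 18.1% of lasting gains. Oct4 at 24 h gave no such order. It was called at 4.76% of the 24 h-only regions and 6.36% of lasting gains in the weakest group, and at 4.31% of the 24 h-only regions and 4.28% of lasting gains in the second. The third group had 2.94% of the 24 h-only regions and 4.89% of lasting gains, and the strongest 8.33% of the 24 h-only regions, which was 1 of 12, and 7.03% of lasting gains.

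The 24 h-only regions were also narrower, with a median width of 585 bp in the weakest group against 698 bp for lasting gains. A region spans all the peaks merged into it, and lasting gains by rule hold a peak of a further list. The rule itself can thus widen lasting gains, so the difference in width is given only as a description. In windows of 200 bp either side of the lot 1 summit, TKO Nanog was called at 47.8% of the 24 h-only regions and 69.7% of lasting gains, and Sox2 at 4.16% of the 24 h-only regions and 11.6% of lasting gains, over all groups together. Lists cut to equal length chose mostly other regions. Of the 340 then chosen, 290 overlapped a 3 passage peak and 60 a serum peak of the full lists. TKO Nanog was called at 63.5% of the 340 regions and 78.9% of the lasting gains then chosen. Sox2 was called at 11.2% of the 340 regions and 20.7% of those lasting gains. The TKO list and the 24 h list of lot 2 share an antibody lot, and the part of the lot in these shares was not tested.

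**Figure D3:**
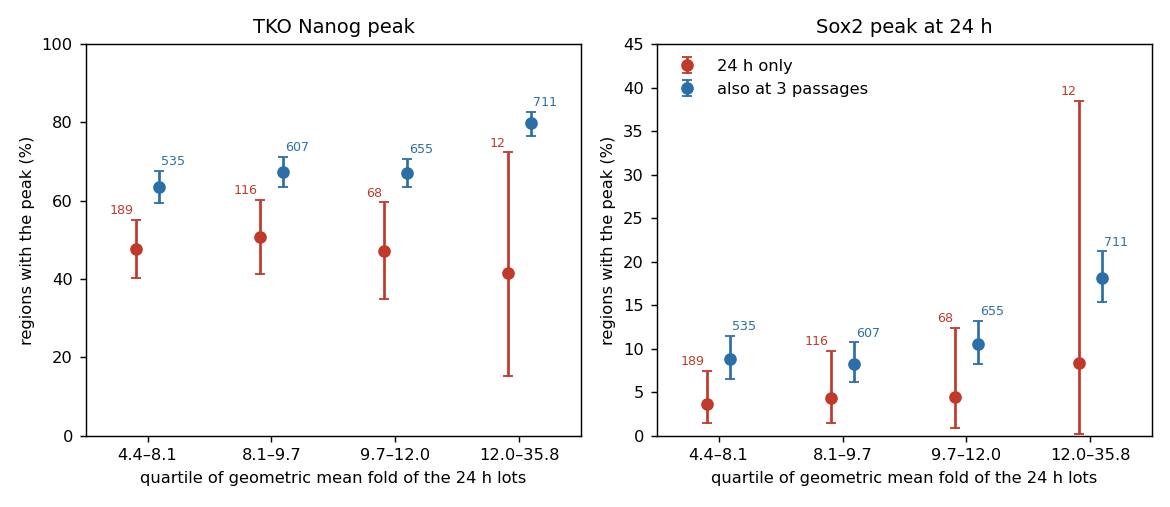
Percent of regions with a TKO Nanog peak (left) or a Sox2 peak at 24 h (right), in 4 groups by the geometric mean of the 24 h Nanog folds of both lots (x axis). Red points are regions called only at 24 h, blue points lasting gains, lines exact 95% intervals and small figures the number of regions; TKO Nanog is below the lasting gains in each group, at 47.6% and 63.6% in the weakest.

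The 2 lots marked nearly the same point within a region. Their summits at 24 h were a median of 46 bp apart at the 24 h-only regions (quartiles 23 and 83 bp) and 36 bp apart at lasting gains (16 and 65 bp). They lay within 100 bp of each other at 315 of the 385 regions, or 81.8%, and at 89.0% of lasting gains. Where TKO cells had a peak, its summit was a median of 48.5 bp from that of lot 1 at the 24 h-only regions and 39 bp at lasting gains. Sox2 summits at 24 h were a median of 30 bp from the Nanog summit of lot 1 at the 16 regions and 39 bp at lasting gains. For Oct4 the medians were 71 bp at the 17 regions and 46.5 bp at lasting gains. Only 2 of the 385 regions held more than 1 peak of lot 1, and none more than 1 of lot 2.

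The rule itself excluded overlap with the serum and 3 passage lists, so gaps to these are a description. The median gap was 26.5 kb to the nearest serum peak of lot 1 and 27.5 kb to the nearest of GFP-high serum cells at the 24 h-only regions, and 22.3 kb and 21.2 kb at lasting gains. A serum peak of lot 1 lay within 1000 bp of 17 regions, or 4.42%, and of 4.23% of lasting gains, against 49.2% of all merged regions, which include those that hold a serum peak. A 3 passage Nanog peak lay within 1000 bp of 24 of the 385 regions, or 6.23%. The median gap to the nearest such peak was 18.9 kb over all 385 regions. The nearest other merged Nanog region was at a median of 9.95 kb from the 24 h-only regions, 8.79 kb from lasting gains and 9.60 kb over all merged regions.

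Median gaps to H3K4me3 and to Sox2 at 24 h were larger than at lasting gains, and the gap to serum Oct4 was not. The median gap to the nearest H3K4me3 peak was 64.1 kb in serum, 77.7 kb at 24 h and 71.9 kb at 3 passages, against 35.5 kb, 43.6 kb and 34.6 kb at lasting gains and 37.9 kb, 46.1 kb and 39.1 kb over all merged regions. H3K4me3 at 24 h lay within 10 kb of 56 of the 385 regions, or 14.5%, of 19.9% of lasting gains and of 24.0% of all merged regions. The nearest Sox2 peak at 24 h was at a median of 38.2 kb, against 26.7 kb at lasting gains and 22.1 kb over all merged regions. For Oct4 at 24 h the medians were 75.6 kb, 63.9 kb at lasting gains and 65.3 kb over all merged regions. For serum Oct4 they were 121.7 kb, 124.2 kb at lasting gains and 115.8 kb over all merged regions. Gaps also depend on the number of peaks in a list. The nearest TKO Nanog peak was at a median of 0.673 kb, because 50.6% of the regions had one within 1000 bp.

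**Figure D4:**
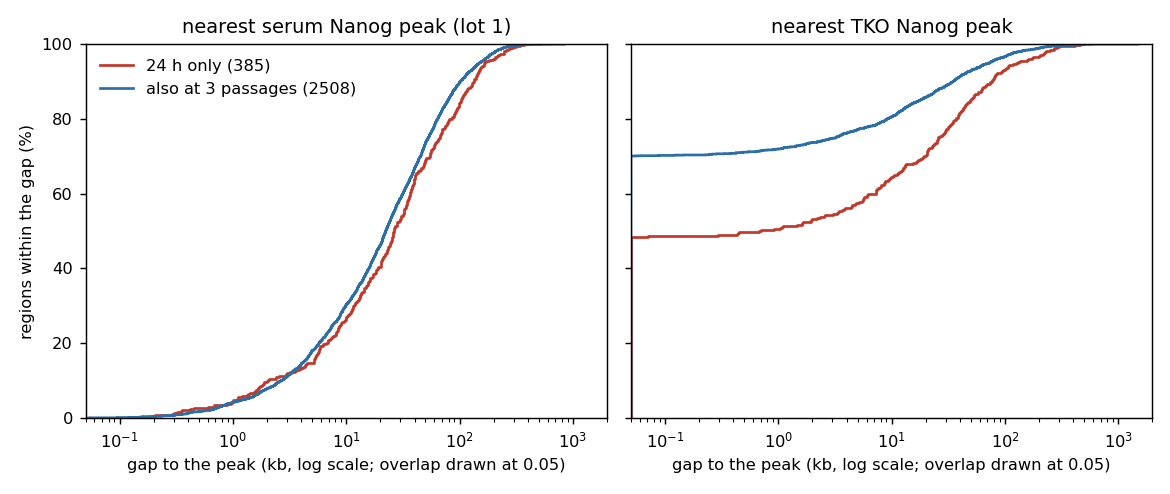
Cumulative percent of regions (y axis) with a serum Nanog peak of lot 1 (left) or a TKO Nanog peak (right) within a given gap in kb (x axis, log scale, overlap drawn at 0.05 kb). Red lines are the 385 regions called only at 24 h and blue lines the 2508 lasting gains; the left lines run close together, with medians of 26.5 and 22.3 kb, and the right lines begin at 48.3% and 70.0%.

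The regions were spread over all 20 chromosomes. Chromosome 6 held the most, 29 or 7.53%, against 6.18% of lasting gains and 5.90% of all merged regions. Chromosome 2 held 28 or 7.27%, against 7.46% of lasting gains and 7.33% of all merged regions. Chromosome 16 held the fewest, 11 or 2.86%, against 4.55% of lasting gains and 3.58% of all merged regions. Chromosome X held 12, or 3.12%, against 2.15% of lasting gains and 3.16% of all merged regions.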

How the data were processed

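The submitters' processing notes name MACS2 and build mm9, with BWA 0.5.7 and Bowtie 0.12.7. The sources used here do not say which of these aligned the reads of a given list. 14 peak lists from 22 of the 36 labelled samples were used. Per the file headers (the peak names), the authors pooled replicates and set them against a control, and each deposited peak carries a fold enrichment (a ratio over the control), a −log10 q and, as a further deposited value, the offset of its summit. Each culture and antibody lot has 1 list; read depth is unknown.

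Peaks on chromosomes 1 to 19 and X were merged at 1 bp overlap, and the strongest peak by −log10 q gave a region its fold. Percentages carry exact Clopper-Pearson 95% intervals (scipy 1.17.1). No test was made, since regions are not replicates. The members, lists and comparisons were chosen with earlier results of these data known. Named regions are the first 10 by summed fold rank, the first 5 with Sox2 and Oct4 at 24 h, the first 5 with H3K4me3 in all lists, the first 3 with a TKO Nanog peak, the first 3 with no peak in the 9 other lists, the last 3, and the first 3 lasting gains. The code was tested on simulated lists. Alternatives were equally long lists, a −log10 q of at least 10 throughout, a common limit for 24 h peaks, a 50% overlap, joining within 1000 bp, autosomes only and rules with fewer lists. Fixed windows and leaving out chromosomes 6 and 8 were added after seeing the data. The RNA, H3K27me3 and whole-cell extract samples were not analysed here.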

Additional observations from a re-analysis of the deposited data

How the results depend on the processing

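Of 69 values under alternatives, 54 stayed within the interval of the reported value, or within 1.5 times the reported count, and 15 did not. The values are not independent, since the alternatives reuse the same lists. A minimum −log10 q of 10 could not change the Nanog, Oct4 and TKO lists, whose lowest values are 12.8 or higher. For the count, the folds, Oct4 and TKO Nanog it restates the reported values. Lists cut to equal length (21893 peaks) gave 340 regions, with median folds of 13.2 (lot 1) and 8.35 (lot 2), Sox2 at 11.2% and TKO Nanog at 63.5%. These are mostly other regions: 45 of the 385 were chosen again, and 290 of the 340 overlap a 3 passage peak of the full list. With 24 h peaks held to a −log10 q of at least 22.0, the highest limit of the excluded lists, 227 regions were left, with a median lot 1 fold of 9.21. With lot 1 lists only there were 10215 regions, with a median lot 1 fold of 7.45, H3K4me3 at 15.1% and TKO Nanog at 25.2%. With lot 2 lists only, where no 3 passage list exists in the rule, there were 6275 regions, with a median lot 2 fold of 8.67, Sox2 at 10.3% and TKO Nanog at 57.0%. At a minimum −log10 q of 10, Sox2 at 24 h was called at 0.519% of regions (0.063 to 1.86) and 1.63% of lasting gains. The cause of these moves was not tested. The shares of TKO Nanog, of Sox2 and of Oct4 at 24 h lay below those of lasting gains in all 10 alternatives that had both. For H3K4me3 at 24 h this held in 8 of 10. Equal length gave 2.94% of the regions and 2.67% of lasting gains, and lot 1 alone 15.1% of the regions and 4.45% of lasting gains. For TKO Nanog and Oct4 the 10 include the minimum −log10 q of 10, whose outcome was fixed. For Oct4 the reported intervals of the 2 sets overlapped, and the groups of mean fold gave no such order. Fixed windows and leaving out chromosomes 6 and 8 were chosen after seeing the data. The median fold of a lot that a rule leaves out has no value. No paired analysis was possible because each culture and antibody lot has 1 list, with no values per replicate. Depth is unknown, so weak binding below a list's limit cannot be told from none.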

Other observations

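Regions called at 24 h with a single lot and in none of the other 4 KH2 Nanog lists differed between the lots in H3K4me3 and TKO Nanog. With lot 1 alone there were 8740, of which 16.7% (exact 95% interval 15.9 to 17.5) held H3K4me3 at 24 h and 24.2% (23.3 to 25.1) TKO Nanog. With lot 2 alone there were 1278, of which 4.15% (3.12 to 5.39) held H3K4me3 at 24 h and 33.5% (30.9 to 36.2) TKO Nanog. The TKO list was made with lot 2. Sox2 at 24 h was called at 4.19% of the regions of lot 1 alone and 2.11% of those of lot 2 alone. For Oct4 at 24 h the shares were 2.41% with lot 1 alone and 2.27% with lot 2 alone. The 385 regions found with both lots had H3K4me3 at 24 h in 2.60% (1.25 to 4.72) and TKO Nanog in 48.3% (43.2 to 53.4).

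A further 232 regions had both lots at 24 h and a serum peak of either kind, and no peak at 3 passages. Sox2 was called there in 9.05% (5.69 to 13.5) in serum, 13.8% (9.63 to 18.9) at 24 h and 4.31% (2.09 to 7.78) at 3 passages, and Oct4 in 10.8% (7.10 to 15.5) at 24 h and 9.05% (5.69 to 13.5) in serum. TKO Nanog was called at 40.9% (34.6 to 47.6). Among the 385 regions without a serum peak, Sox2 stood at 0.779% in serum and 4.16% at 24 h.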
